A study of Homo sapiens with 14 samples.

Results

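A set of genes linked to DNA and histone methylation was followed through 14 RNA libraries of the human leukaemia cell line OCI-AML2. Some of them are recurrently altered in acute myeloid leukaemia. The set, chosen by name, holds DNMT1, DNMT3A, DNMT3B, TET2, TET3, IDH1, IDH2, ASXL1, EZH2 and KMT2A, which are 10 of the 58037 genes in the deposited count table. The study concerns leukaemia with RUNX1 mutation and drugs that block protein synthesis. Cells of the parent line carry both RUNX1 alleles intact, and cells of lines F3 and G7 carry the stop mutation R174* on 1 allele, in the same OCI-AML2 background. Total RNA came from 2 libraries of untreated wild-type cells, 4 of mutant control cells (2 of F3, 2 of G7) and 4 of mutant cells given 100 nM homoharringtonine (HHT) for 8 h (2 of F3, 2 of G7). HHT is a plant alkaloid that blocks translation elongation at the ribosome. RiboLace, which pulls down RNA on active ribosomes with a puromycin-like probe, was applied to 2 wild-type and 2 mutant libraries, the latter all from F3. No wild-type cells were given HHT, and none of the RiboLace samples was treated. The mutant genotype is seen in lines F3 and G7 only, and the labels do not say whether replicates came from separate cultures, so p-values measure the spread between these libraries. The labels call the mutant controls 8 h controls, with DMSO named as the vehicle, while their sample descriptions read 0 h. Wild-type libraries are labelled as untreated, so genotype and control treatment cannot be told apart, and neither can HHT and time in culture if the controls were taken at 0 h.

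DNA methylation at CpG dinucleotides is laid down by DNMT3A and DNMT3B, the de novo methyltransferases, and copied to the new strand after replication by DNMT1. TET2 and TET3 oxidise methylcytosine in a reaction that consumes 2-oxoglutarate, the product of the isocitrate dehydrogenases IDH1 in the cytosol and IDH2 in mitochondria. Mutant forms of these dehydrogenases in leukaemia make 2-hydroxyglutarate, which inhibits TET enzymes. EZH2 is the catalytic subunit of Polycomb repressive complex 2 and methylates histone H3 to silence genes, ASXL1 is a Polycomb-associated cofactor of the histone deubiquitinase BAP1, and KMT2A (MLL) methylates histone H3 at active promoters and is a frequent fusion partner in leukaemia.

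In GENCODE 29 on GRCh38, DNMT1 lies at chr19:10133345-10231286, KMT2A at chr11:118436464-118526832, EZH2 at chr7:148807383-148884321, IDH2 at chr15:90083045-90102504 and TET2 at chr4:105145875-105279816. Chromosome 2 holds DNMT3A at chr2:25227855-25342590, TET3 at chr2:73986404-74108176 and IDH1 at chr2:208236227-208266074. ASXL1 (chr20:32358330-32439319) and DNMT3B (chr20:32762385-32809356) are near neighbours on the plus strand of chromosome 20. The deposited values are per gene and do not separate isoforms or alleles.

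Depth differed by assay. Total RNA libraries held 19250789 to 21925693 counts and RiboLace libraries 2034796 and 1054581 (wild type) and 1192811 and 465052 (mutant). Protein-coding genes took 97.79 to 98.3% of the counts in total RNA and 74.5 to 77.9% in RiboLace. The 10 genes took 0.0949 to 0.196% of a library. Of 10 myeloid markers 9 were transcribed in total RNA, among them PTPRC at 204 to 424 CPM (counts scaled by depth), SPI1 at 314 to 590 and MPO at 15.8 to 81.2, while KIT reached 1 read at most. Of the other cell types, the erythroid markers reached 3 reads at most in any library and EPCAM, KRT19, COL1A2 and COL3A1 were at 0 in all 14, whereas NKG7 (5.81 to 17.0 CPM) and PECAM1 (16.0 to 177 CPM) were present. Gene levels are given in CPM, the usual depth-scaled read count, after trimmed-mean (TMM) scaling within each assay, so a change is relative to the bulk of other transcripts. In bulk RNA, fewer cells of a type and less RNA per cell cannot be told apart.

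All 10 genes were transcribed in every library. Per kilobase of merged exon, IDH2 stood first in mutant control cells at 122 ± 3.16 CPM per kb (SD, n = 4), followed by DNMT1 at 31.4 ± 1.31 and EZH2 at 14.3 ± 0.88. DNMT3A (12.2 ± 0.89) and IDH1 (11.2 ± 1.15) overlapped between libraries, ASXL1 (9.26 ± 0.47) and TET3 (6.47 ± 0.65) came next, DNMT3B (4.05 ± 0.88) and TET2 (4.04 ± 0.42) overlapped, and KMT2A was last at 2.80 ± 0.32. The means of the 2 wild-type libraries fell in the same order, from IDH2 at 110 to KMT2A at 2.08 CPM per kb, although in wild-type replicate 2 TET2 (3.99) stood above DNMT3B (3.79). After HHT the means of IDH2, DNMT1 and EZH2 still stood first, EZH2 at 32.2 ± 4.78, but IDH1 became the lowest at 1.37 ± 0.058. TET2 then stood above TET3, at 8.02 ± 0.50 against 6.38 ± 0.95 (SD, n = 4).

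**Figure D1:**
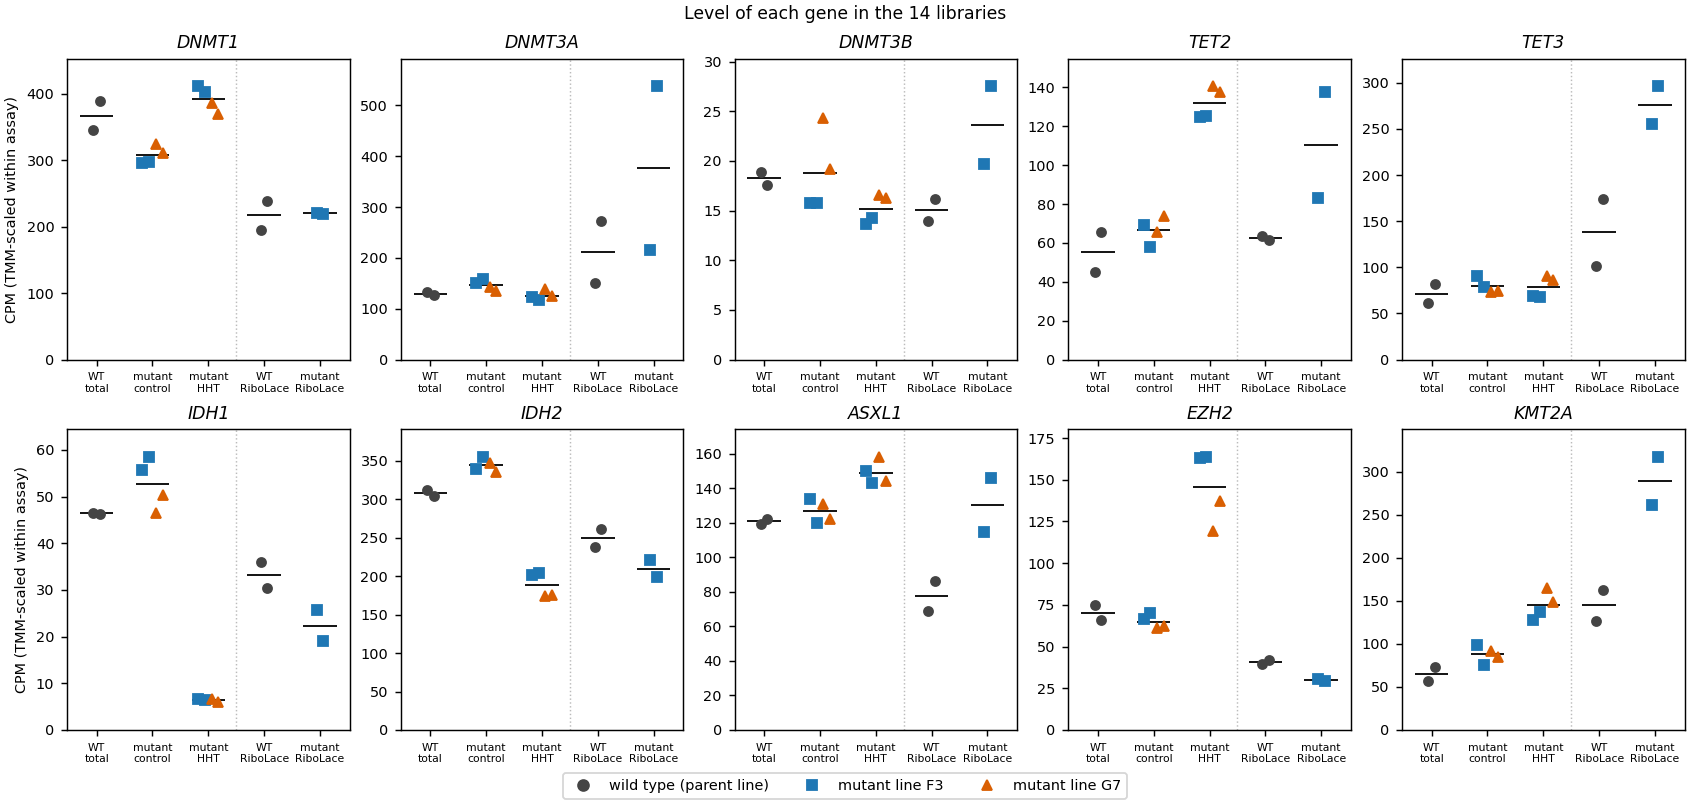
Level of each gene (TMM-scaled CPM, linear axis from 0) in the 14 libraries, by group, with 1 point per library and a bar at the group mean; the dotted line separates total RNA from RiboLace. IDH1 drops to 6.09 to 6.73 CPM in the 4 HHT libraries, while EZH2, TET2 and KMT2A sit above all their controls.

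HHT was compared with control in mutant cells, with line as a term in the fit. IDH1 fell 8.11-fold and IDH2 1.83-fold, while EZH2 rose 2.24-fold, TET2 1.99-fold and KMT2A 1.65-fold. DNMT1 and ASXL1 rose by less, DNMT3A and DNMT3B fell by less, and TET3 did not pass. In all, 9 of the 10 genes passed at an adjusted p under 0.05 (edgeR quasi-likelihood test), 5 up and 4 down, beside 78.6% of the 13983 genes tested (39.8% up, 38.8% down). That share of all genes is high, and a call by itself does not set the 10 genes apart. The median log2 change was 0.10 over the 10 genes and 0.00 over all genes tested.

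Among the DNA methyltransferases, DNMT1 stood at 297 and 298 CPM in the F3 controls, with 324 and 311 in those of G7. With HHT it was 411 and 402 in F3 and 387 and 369 in G7, so that no HHT library fell within the control range. The log2 change was 0.35 ± 0.06 (SE; adjusted p = 7.7e-05). DNMT3A, by contrast, gave 151, 159, 142 and 134 CPM in controls and 123, 116, 139 and 125 with HHT, and the groups overlapped. Its log2 change was -0.22 ± 0.08 (adjusted p = 0.0168). That call was lost in 3 of the 8 fits that left out 1 library (adjusted p = 0.0635 without control replicate 2, 0.0668 without HHT replicate 1 and 0.0965 without HHT replicate 2), and with library totals in place of TMM the value was 0.01 (adjusted p = 0.922). DNMT3B, the least abundant by reads, gave 15.8, 15.7, 24.4 and 19.2 CPM in controls and 13.7, 14.2, 16.5 and 16.2 with HHT. One G7 control stood highest, the groups overlapped, and the log2 change was -0.29 ± 0.09 (adjusted p = 0.0104); with library totals it was -0.07 (adjusted p = 0.523). Of the 3 DNA methyltransferases, DNMT1 alone had groups that did not overlap.

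The dioxygenases divided. TET2 stood at 69.1 and 57.7 CPM in the F3 controls, with 65.5 and 73.9 in those of G7. With HHT it reached 125 and 125 in F3 and 141 and 138 in G7, every value above the highest control. The log2 change was 0.99 ± 0.07 (adjusted p = 9.55e-09), and by line it was 0.95 ± 0.08 in F3 and 1.01 ± 0.10 in G7. TET3, a close relative with the same enzymatic activity, gave 91.0 and 78.3 CPM in the F3 controls, with 73.5 and 74.7 in those of G7. With HHT it was lower in F3, at 68.9 and 67.8, and higher in G7, at 90.5 and 86.0. Pooled over lines the values overlapped and the log2 change was -0.03 ± 0.10 (adjusted p = 0.822).

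Bases upstream of the most 5′ RefSeq start site, up to 250, are shown for TET2, IDH1 and EZH2. They are the genes with the largest HHT changes, and the stretches are shown because RUNX1 is the factor altered in these cells. Sequences are from RefSeq on GRCh38.p14, which held a window for 10 of the 10 genes (21 windows in all), and are written 5′ to 3′ on the gene's strand. Stretches of annotated exon were left out, except 30 bases of IDH1 around a RUNX core. TET2, IDH1 and EZH2 each had another window, not shown, that held no motif searched. Capitals mark a motif found by letter search on both strands: TGTGGT, the core bound by RUNX factors, or CACGTG, the E-box bound by MYC and related factors. The most 5′ TET2 start has an E-box 14 bases upstream, in a stretch at chr4:105145625-105145874 on the plus strand with 10 CpG. The window of the other TET2 start, all annotated exon, has 34 CpG.
TET2: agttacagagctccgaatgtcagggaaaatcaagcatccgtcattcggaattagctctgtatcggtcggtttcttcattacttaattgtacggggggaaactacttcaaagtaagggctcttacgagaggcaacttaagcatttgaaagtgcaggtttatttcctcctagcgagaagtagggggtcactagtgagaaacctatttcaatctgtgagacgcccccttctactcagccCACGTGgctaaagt

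IDH1 showed the greatest change of the set. The F3 controls gave 55.7 and 58.5 CPM, those of G7 46.4 and 50.3. With HHT it stood at 6.57 and 6.50 in F3 and 6.73 and 6.09 in G7, a range that lay far under the lowest control. The log2 change was -3.02 ± 0.08 (adjusted p = 1.32e-12), larger in size than that of 97.2% of all genes tested, and it was -3.16 in F3 and -2.90 in G7. IDH2, the mitochondrial enzyme of the same reaction, gave 339, 355, 347 and 335 CPM in controls and 201 and 204 in the F3 libraries with HHT. The G7 libraries with HHT had a mean of 175 ± 1.39 CPM (SD, n = 2; 3980 and 4275 reads), also clear of the controls. Its log2 change was -0.87 ± 0.06 (adjusted p = 5.64e-09). The IDH1 stretch at chr2:208255134-208255321 on the minus strand holds 14 CpG and no motif searched. A 30-base stretch ending at the most 5′ start site, at chr2:208255072-208255101, holds a RUNX core 9 bases upstream. That 30-base stretch lies within an annotated exon.
IDH1 upstream: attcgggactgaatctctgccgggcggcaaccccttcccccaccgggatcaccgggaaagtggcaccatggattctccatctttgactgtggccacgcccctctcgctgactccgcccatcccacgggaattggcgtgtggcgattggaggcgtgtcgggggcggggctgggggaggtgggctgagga
IDH1 start site: aggaaaagctcggacctacccTGTGGTccc

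EZH2, the Polycomb methyltransferase, had 66.2 and 69.8 CPM in the F3 controls, with 61.1 and 62.2 in those of G7. With HHT it was 163 and 164 in F3 and 119 and 137 in G7. Both lines exceeded their controls, and G7 reached less than F3. The log2 change was 1.16 ± 0.07 (adjusted p = 1.06e-09), 1.23 in F3 and 1.07 in G7, and the difference between the lines was -0.19 ± 0.12 (adjusted p = 0.445). ASXL1 gave 133, 120, 131 and 122 CPM in controls and 150, 143, 158 and 144 with HHT; the groups did not overlap, though the log2 change was small at 0.23 ± 0.06 (adjusted p = 0.00412). With the trend of fold change on exon length removed, an alternative added after seeing the data, ASXL1 was at 0.13 (adjusted p = 0.0564). KMT2A rose from 98.9, 75.6, 91.5 and 84.7 CPM to 128, 137, 165 and 149, again without overlap, with a log2 change of 0.72 ± 0.09 (adjusted p = 3.63e-06). The EZH2 stretch at chr7:148884322-148884541 on the minus strand is rich in CpG, with 35 in 220 bases, and holds none of the motifs searched.
EZH2: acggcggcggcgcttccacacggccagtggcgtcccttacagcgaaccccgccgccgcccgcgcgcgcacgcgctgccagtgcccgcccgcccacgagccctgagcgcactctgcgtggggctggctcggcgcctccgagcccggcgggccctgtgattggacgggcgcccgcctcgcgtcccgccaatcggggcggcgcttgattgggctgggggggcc

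Over all windows, TGTGGT was in the upstream 250 bases of 2 of the 10 genes (ASXL1 and IDH1), beside 13.2% of 27303 genes. CACGTG was in 3 (DNMT3A, TET2 and TET3), beside 7.7%. The E2F motif TTTGGCGC or TTTCCCGC was in 0 of 10, beside 2.4%. These matches are letters in a window and were not set against binding data. A gene was counted if any of its windows held the motif. The 10 genes had 21 windows, whereas the 27303 genes had 35114, which is fewer per gene. The shares of all genes are therefore not a like background for the counts among the 10, and no enrichment was tested.

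**Figure D2:**
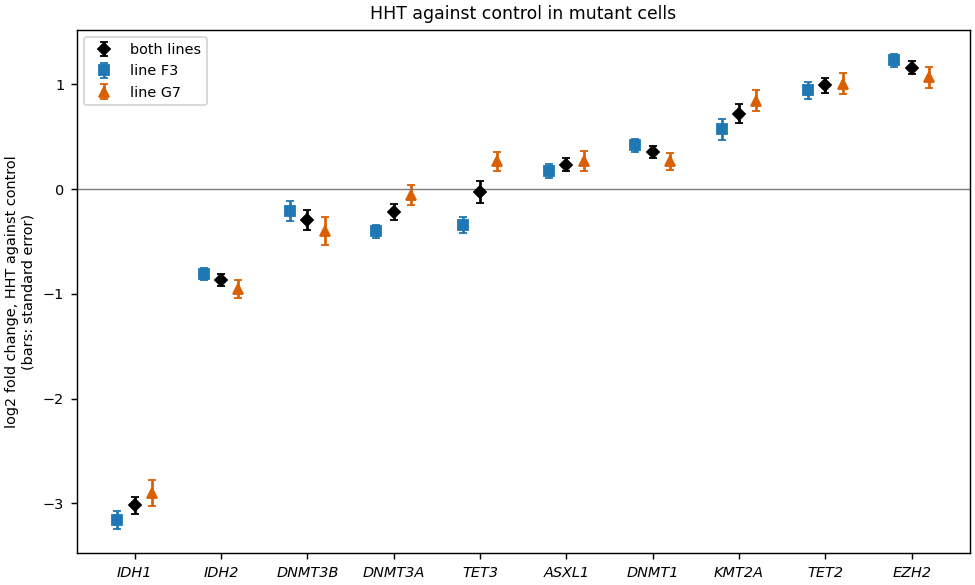
Log2 fold change of HHT against control for each gene, ordered by the value over both lines (diamonds), with lines F3 (squares) and G7 (triangles) fitted alone and bars of 1 standard error. IDH1 lies near -3 in both lines, and TET3 is below 0 in F3 and above 0 in G7.

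In all, 7 of the 10 genes had control and HHT ranges that did not overlap, beside 66% of all genes tested; DNMT3A, DNMT3B and TET3 overlapped. A share near that of all genes does not set the 10 apart. With library totals alone the median over all genes tested moved from 0.00 to 0.23 and the share of calls that were higher from 50.6 to 61.6%, so each value above is relative to that shift. Markers of cell identity moved in the same comparison. Of the myeloid markers 9 were tested, 2 rose and 7 fell, and their summed level was 5756 to 6476 CPM in controls and 2864 to 3058 with HHT. AZU1 weighed most in that sum, at 1450.5 to 4561.7 CPM over the total RNA libraries, where no other myeloid marker exceeded 809 CPM. The summed lymphoid markers were 12.1 to 19.1 and 6.86 to 8.28 CPM, nearly all NKG7, and the markers of adherent cells 153 to 178 and 17.0 to 20.3 CPM, nearly all PECAM1. The part of these shifts in the results was not tested.

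The response was then compared between lines. TET3 was the only one of the 10 genes whose HHT response differed, beside 3.8% of genes tested. Its log2 change in G7 exceeded that in F3 by 0.58 ± 0.12 (edgeR interaction term, adjusted p = 0.0125), the control and HHT libraries of each line lying apart in opposite directions. Fitted alone, F3 gave -0.34 ± 0.08 (adjusted p = 0.00158) and G7 0.26 ± 0.09 (adjusted p = 0.024). The call was lost without control replicate 1 (0.50, adjusted p = 0.0817), HHT replicate 2 (0.56, 0.0821) or HHT replicate 3 (0.54, 0.0678). DNMT3A differed in the same direction by 0.33 ± 0.11 without passing (adjusted p = 0.134); it passed with replicate number as a block (0.33, adjusted p = 0.00469), a setting that raised the calls over all genes from 548 to 2153, and without control replicate 3 (adjusted p = 0.0456). Each line alone had 9 of the 10 genes called, beside 77.4% of all genes in F3 and 69.5% in G7; DNMT3B missed in F3 (adjusted p = 0.0654) and DNMT3A in G7 (-0.05, adjusted p = 0.627). Untreated, G7 exceeded F3 in DNMT3B by 0.47 ± 0.14 (adjusted p = 0.0351), the only one of the 10 to pass beside 12.5% of genes, with 24.4 and 19.2 CPM in G7 against 15.8 and 15.7 in F3. DNMT3B lost that call when any of control replicates 1 (adjusted p = 0.174), 2 (0.199) or 3 (0.308) was left out, and without replicate 3, the highest library, the value itself fell to 0.28.

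Genes that work with the 10 were examined as 6 lists of partners, chosen with earlier results of these data known. Of 16 tested readers and partners of DNA methylation, 9 rose and 4 fell with HHT (median log2 change 0.27). TET1, the third TET enzyme, fell from a mean of 36.9 to 2.87 CPM (-3.70 ± 0.13, adjusted p = 1.1e-11), a fall larger than that of IDH1. UHRF1, which brings DNMT1 to newly replicated DNA, fell by 1.42 on the log2 scale, while the CXXC zinc-finger protein gene CXXC5 rose by 1.37 and MBD4, a DNA glycosylase, by 1.34. In the same cells, then, TET1 fell, TET2 rose and TET3 did not pass. Of 16 enzymes of 2-oxoglutarate, Krebs-cycle and methyl donor metabolism, 1 rose and 9 fell (median -0.24). OGDH, a 2-oxoglutarate dehydrogenase subunit, changed by -1.89 and MAT2A, which makes S-adenosylmethionine, by -1.68, while the Krebs-cycle subunit IDH3A rose by 0.52. With library totals alone 5 of that list rose and 6 fell (median -0.01), and 11 readers and partners rose and 3 fell (0.50).

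Among 28 Polycomb genes 15 rose and 8 fell (median 0.21). EED, the partner subunit of EZH2, rose by 1.57 and PCGF6 by 1.80, while RBBP4, a histone chaperone of the same complex, changed by -1.24 and CBX8 by -1.34. Of the 10 ASXL and BAP1 partners tested, 2 rose and 7 fell (median -0.69): ASXL2, the paralogue of ASXL1, by 1.38 and MBD5 by 0.33, against -1.41 for FOXK1 and -1.32 for KDM1B. Of 24 genes of KMT2 complexes and KMT2A fusion partners 12 rose and 9 fell (median 0.12), led by KDM6A at 1.78 and AFF4 at 1.77 upward and by AFF1 at -1.19 and MLLT1 at -0.92 downward. Of 24 other chromatin and cohesin genes 15 rose and 6 fell (median 0.28), with EP300, a histone acetyltransferase, at 1.59, ARID2 at 1.49, HDAC1 at -0.42 and NSD2 at -0.36. With library totals alone the counts that rose and fell were 18 and 5 for Polycomb (median 0.44), 3 and 6 for ASXL and BAP1 (-0.46), 12 and 7 for KMT2 (0.35) and 17 and 2 for the last list (0.50). The genes named were the largest changes among those that had passed the edgeR test, so their passing was fixed by that choice. They kept sign and call under both other scalings, which covers only the largest changes of each list. The lists are set beside the 39.8% up and 38.8% down of all genes.

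**Figure D3:**
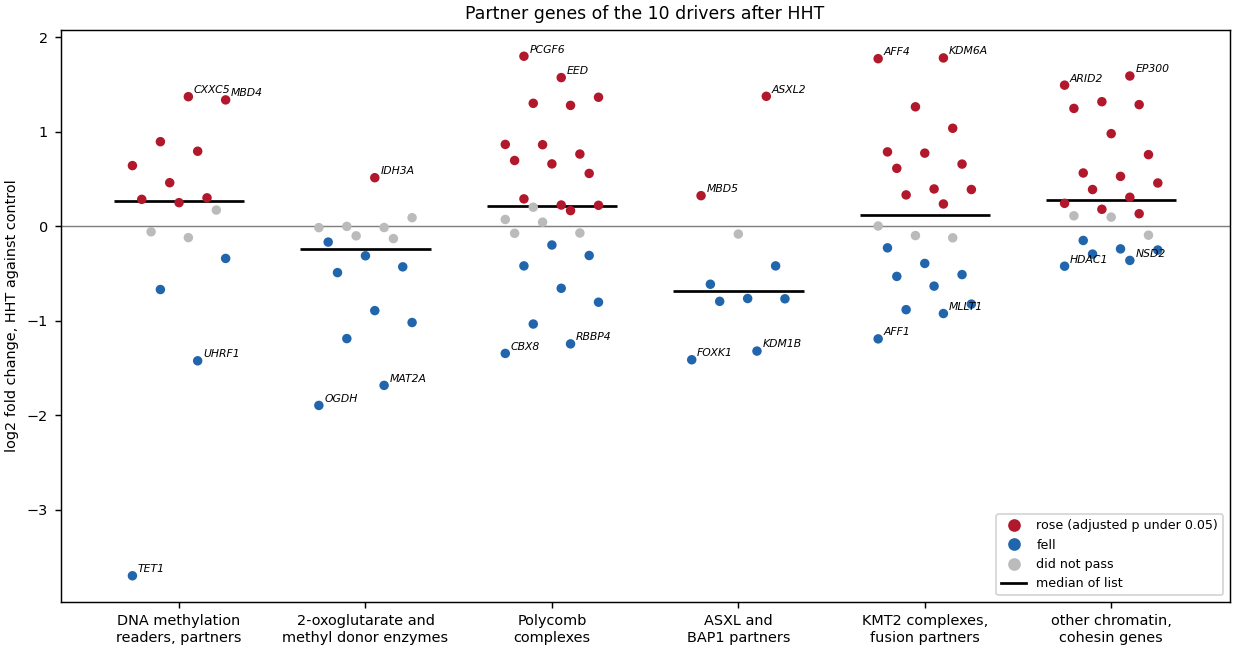
Log2 fold change of HHT against control for each tested gene of the 6 partner lists, with 1 point per gene (red rose, blue fell, grey did not pass) and a bar at the list's median. TET1 at -3.70 lies below every other partner gene, and the ASXL and BAP1 partners have the lowest median, -0.69.

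Mutant and wild-type cells were compared in total RNA, 4 mutant control libraries against 2 of wild type. None of the 10 genes passed (edgeR), beside 4.56% of 13949 genes; 2 of the 10, KMT2A and DNMT1, had an unadjusted p under 0.05, beside 3058 of all 13949, and DESeq2 also called 0. KMT2A was at 57.2 and 72.9 CPM in wild type and 75.6 to 98.9 in the 4 mutant controls, every mutant library above both wild-type ones. Its log2 difference was 0.42 ± 0.14 (adjusted p = 0.12), but 0.26 (adjusted p = 0.617) without wild-type replicate 1 and 0.26 (0.177) with the trend on exon length removed. DNMT1 lay the other way, at 345 and 390 CPM in wild type and 297 to 324 in mutant cells, with a difference of -0.27 ± 0.09 (adjusted p = 0.139), which was -0.18 (0.566) without wild-type replicate 2. DNMT3A (132 and 127 against 134 to 159 CPM) and IDH2 (312 and 305 against 335 to 355 CPM) did not overlap between groups either, with differences of 0.17 ± 0.10 and 0.15 ± 0.09 that did not pass (adjusted p = 0.372 and 0.361). The groups of these 4 genes were apart, beside 32.8% of all genes tested. The remaining 6 genes overlapped, with differences from -0.13 for EZH2 to 0.25 for TET2. The TET2 value ran from 0.01 without wild-type replicate 1 to 0.55 without wild-type replicate 2. Markers of cell identity differed here too. Of 9 myeloid markers tested 3 were higher and 0 lower, beside 2.49% of all genes higher, with a median of -0.12. Their summed level was 4131 and 3609 CPM in wild type and 5756 to 6476 in mutant controls. The adherent-cell markers, nearly all PECAM1, summed to 89.5 and 103 against 153 to 178 CPM. The part of these shifts in the results was not tested.

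When each line had its own group in 1 fit of the 6 libraries, KMT2A passed in both lines, which share the 2 wild-type libraries. It was higher by 0.42 ± 0.14 in F3 (adjusted p = 0.0464) and by 0.43 ± 0.14 in G7 (adjusted p = 0.0396). DNMT1 was lower in F3 by -0.31 ± 0.10 (adjusted p = 0.0375) and did not pass in G7 (-0.22, adjusted p = 0.145). These are 2 of 10 genes in F3, beside 18.1% of all genes, and 1 of 10 in G7, beside 17.7%. Fits that left out 1 library were added after seeing the data. KMT2A was lost in both lines without wild-type replicate 1, at 0.25 in F3 (adjusted p = 0.272) and 0.26 in G7 (0.25). It was also lost in F3 without control replicate 1 (0.21, adjusted p = 0.533) and in G7 without control replicate 3 (0.37, 0.0646). DNMT1 in F3 was lost without wild-type replicate 2 (-0.22, adjusted p = 0.287), control replicate 1 (0.247) or control replicate 2 (0.194). The pooled comparison called 636 genes and fell to 43 without wild-type replicate 1 and 63 without wild-type replicate 2.

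Among the partner genes, 3 of 16 readers and partners of methylation passed: CXXC5 at 0.63 ± 0.15 (adjusted p = 0.0479), UHRF1 at -0.50 ± 0.09 (0.0158) and PCNA, the replication clamp, at -0.78 ± 0.13 (0.0138). PHC3 (0.60) was the only one of 28 Polycomb genes and MBD6 (0.56) of 10 ASXL and BAP1 partners, while KMT2D (0.64) and KMT2B (0.40), the methyltransferase relatives of KMT2A, were 2 of 24 in their list. None of 16 metabolic enzymes or 24 other chromatin genes passed; their most abundant members AHCY and SMARCA4 differed by -0.21 and -0.09. All 7 named calls were lost when either wild-type library was left out, with adjusted p = 0.0924 to 0.359. KMT2B was also lost without control replicate 1 (0.0969), 2 (0.0858) or 3 (0.058), CXXC5 without 1 (0.0867) or 2 (0.0711) and PHC3 without 1 (0.0564).

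RiboLace compared RNA on active ribosomes between mutant F3 and wild-type cells, 2 libraries each. TET3 and KMT2A were higher in mutant cells and 8 of the 10 genes did not pass, so that 2 of 10 were called up beside 11.8% of all 9805 genes called and 6.18% called up. TET3 was at 102 and 173.7 CPM in wild type and 256 and 296 in mutant libraries, a log2 difference of 1.01 ± 0.28 (edgeR, adjusted p = 0.017). KMT2A was at 127 and 162 CPM against 262 and 317, a difference of 1.00 ± 0.27 (adjusted p = 0.0138). Both genes kept the 2 genotypes apart in these 4 libraries, as did 8 of the 10 in all, beside 57.9% of all genes tested. Either call was lost without wild-type replicate 1 (adjusted p = 0.252 for TET3 and 0.14 for KMT2A), mutant replicate 1 (0.0603 and 0.0548) or mutant replicate 2 (0.209 and 0.236).

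The other genes with over 12 kb of merged exon had values above 0 that did not pass. TET2 was at 63.8 and 61.7 CPM in wild type and 82.9 and 137 in mutant libraries (0.76 ± 0.29, adjusted p = 0.0769), and at 0.40 (0.643) without mutant replicate 2. ASXL1 was at 69.1 and 86.4 against 115 and 146 (0.73 ± 0.27, adjusted p = 0.0701), and passed without wild-type replicate 2 (0.87, 0.0426). DNMT3A was at 151 and 272 against 216 and 537 CPM, with overlap (0.82 ± 0.33, adjusted p = 0.1). The DNMT3A value turned on single libraries: it was 0.04 (adjusted p = 0.977) without mutant replicate 2 and 0.43 (0.584) without wild-type replicate 1. It passed without mutant replicate 1 (1.35, adjusted p = 0.0223) or wild-type replicate 2 (1.27, 0.0207). DNMT1 hardly differed (195 and 239 against 221 and 220 CPM; 0.03 ± 0.26). Of the 4 genes with the least exon length, 3 had values below 0 that did not pass: IDH2 at 238 and 262 against 221 and 199 CPM (-0.25 ± 0.26), EZH2 at 39.7 and 41.8 against 30.8 and 29.6 (-0.42 ± 0.33), and IDH1 at 35.9 and 30.4 against 25.7 and 19.0 (-0.52 ± 0.36). IDH1 rested on 30 and 9 reads and EZH2 on 36 and 14 reads in the mutant libraries. The fourth, DNMT3B, was higher without passing, at 13.9 and 16.1 against 19.7 and 27.5 CPM (0.60 ± 0.43), on 13 to 26 reads in all 4 libraries.

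Over the 8865 coding genes of this comparison, the log2 difference went with exon length. The median was -0.65 for genes with under 2 kb of exon and 0.47 for those over 12 kb, and Pearson's r between difference and log2 length was 0.44, a description across genes that share 4 libraries. Over the 10 genes r was 0.79. KMT2A has 31.3 kb of merged exon, TET2 16.47, ASXL1 13.68, TET3 12.27 and DNMT3A 12.02, against 9.8 for DNMT1 and 2.81 to 4.72 for the other 4. With the length trend removed, an alternative added after seeing the data, TET3 was at 0.64 (adjusted p = 0.125) and KMT2A at 0.34 (adjusted p = 0.434), 0 of the 10 passed, and 768 genes were called in place of 1154. In total RNA the same r over coding genes was 0.12 for mutant against wild type and 0.02 for HHT against control. For the difference between lines in HHT response it was 0.14, and for untreated G7 against F3 -0.04. With the length trend removed, the TET3 difference between lines in HHT response was 0.49 (edgeR, adjusted p = 0.0204).

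**Figure D4:**
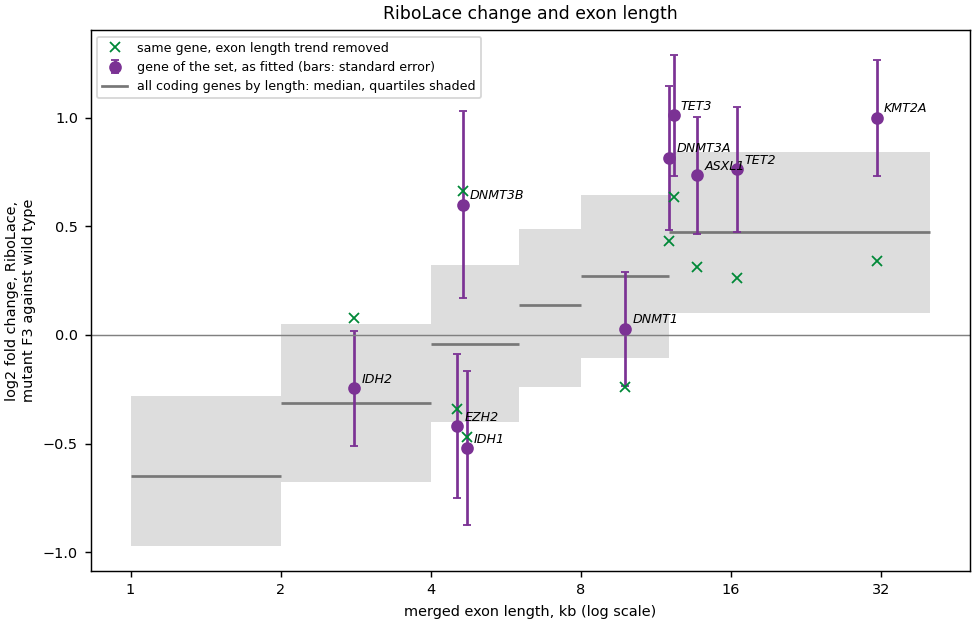
RiboLace log2 difference, mutant F3 against wild type, against merged exon length (log axis), for each gene as fitted (circles, bars of 1 standard error) and with the length trend removed (crosses), over the median and quartiles of all coding genes in 6 length bins. The genes over 12 kb lie between 0.73 and 1.01 as fitted, and between 0.26 and 0.64 with the trend removed.

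DNMT3A stood apart in its RiboLace reads, a feature singled out after its values were seen. Its reads were 281 and 287 in wild-type libraries and 253 and 254 in mutant ones, nearly constant although the library totals differed 4.38-fold. The highest count was 1.13 times the lowest, the flattest of 733 genes with at least 100 reads in each RiboLace library, for which the median ratio was 3.53. Its CPM accordingly ran inversely to depth, from 151 in the deepest library to 537 in the shallowest. IDH1 (67, 32, 30 and 9 reads) and IDH2 (ratio 4.72) moved with depth instead, whereas KMT2A (ratio 2.04) and TET3 (2.14) lay between. The part of depth in the DNMT3A values was not tested.

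**Figure D5:**
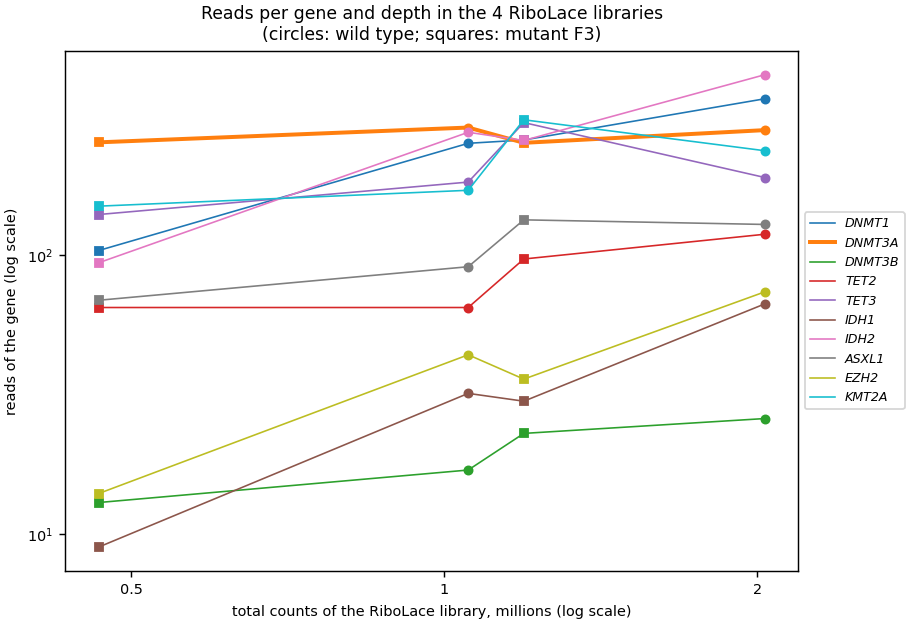
Reads of each gene against total counts of the RiboLace library (both axes log), with lines joining the 4 libraries of 1 gene, circles for wild type and squares for mutant F3. DNMT3A (thick line) stays between 253 and 287 reads while most others climb with depth.

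RiboLace was also set against total RNA of the same lines, which shows which transcripts were over- or under-represented in the pull-down. In F3 the total RNA came from the mutant controls, with DMSO named as the vehicle, and the RiboLace from untreated cells. Assay and control treatment therefore cannot be told apart in F3. In wild type KMT2A (1.29 ± 0.19, adjusted p = 7.68e-06), TET3 (1.07 ± 0.21, 0.000214) and DNMT3A (0.84 ± 0.27, 0.0142) were higher in RiboLace, and EZH2 (-0.64 ± 0.18, 0.00489), DNMT1 (-0.61 ± 0.17, 0.00584) and ASXL1 (-0.50 ± 0.18, 0.0239) lower (edgeR). That is 6 of 10 genes beside 48.3% of 15338 (27.3% up, 21% down). In mutant F3, KMT2A (1.81 ± 0.19, adjusted p = 6.7e-08), TET3 (1.79 ± 0.21, 3.27e-07), DNMT3A (1.31 ± 0.28, 0.000435) and TET2 (0.81 ± 0.22, 0.00452) were higher, and IDH1 (-1.16 ± 0.24, 0.000306), EZH2 (-1.05 ± 0.22, 0.000446) and IDH2 (-0.61 ± 0.18, 0.0069) lower, 7 of 10 beside 49.2% (26.5% up, 22.7% down). KMT2A and TET3 passed in both genotypes under each alternative run. DNMT3A in wild type did not: it was lost without either total RNA library (adjusted p = 0.0693 and 0.0819) and went to 0.36 (0.237) without RiboLace replicate 2. ASXL1 in wild type was lost in 5 of 8 fits that left out a library, with adjusted p = 0.0809 to 0.148. DNMT1 (-0.45, 0.112) without wild-type total replicate 2 and EZH2 (-0.48, 0.0519) without replicate 1 were lost too.

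In F3, DNMT3A (0.59, adjusted p = 0.0685) and TET2 (0.50, 0.143) were lost without mutant RiboLace replicate 2, the shallowest library, and IDH2 without either F3 control (0.0623 and 0.103). With the length trend removed TET2 (0.15, adjusted p = 0.567) and IDH2 (-0.07, 0.742) no longer passed in F3, DNMT3B (0.91, 0.0119) and DNMT1 (-0.54, 0.0106) did, and ASXL1 turned from 0.11 to -0.41 (0.0468). EZH2 in wild type was then at -0.41 (0.05). Scaling moved the median of all genes from 0.01 to -0.13 in wild type with library totals. In F3 it moved from -0.02 to 0.09 with relative log expression (RLE) size factors in edgeR, and DESeq2 gave 0.11.

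The difference between genotypes in this ratio, a measure of translational efficiency, was tested as an interaction. It also carries the control treatment of the F3 total RNA libraries, which cannot be told apart from genotype here. None of the 10 genes passed (edgeR), beside 1.49% of 15338 genes (229), of which 2541 had an unadjusted p under 0.05. The greatest values among the 10 were -0.86 ± 0.31 for IDH1 (adjusted p = 0.155), 0.75 ± 0.37 for DNMT3B (0.311), 0.72 ± 0.30 for TET3 (0.214) and 0.61 ± 0.26 for ASXL1 (0.226). IDH1, TET3 and ASXL1 had unadjusted p under 0.05. TET3 passed only without wild-type RiboLace replicate 2 (1.09, adjusted p = 0.00264), and DESeq2 called 0 of the 10. Of the 229 genes called 32.3% were higher, against 47.7% with library totals.

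For each gene, the coding gene with the most similar profile over the 10 total RNA libraries was found by Pearson's r of log2 CPM among 9756 genes. It was RNH1 for IDH1 (r = 0.999; mean 478 CPM in mutant controls and 116 with HHT), PREB for IDH2 (0.998), C17orf53 for EZH2 (0.997), PDLIM5 for TET2 (0.995) and HECTD4 for KMT2A (0.991). ASXL1 was closest to VPS13D (0.98), DNMT1 to SCO1 (0.977), DNMT3A to CEP89 (0.974), DNMT3B to ANO7 (0.954) and TET3 to AJUBA (0.908). These r values rest on 3 groups that share libraries and describe likeness only.

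Some reads could belong to neighbours. DNMT1 shares 83 exon bases with S1PR2 on the same strand, IDH1 shares 94 with the antisense gene IDH1-AS1, and KMT2A shares 5599 with AP001267.5 and 317 with the antisense AP001267.3, and how the counting treated them is not given in the sources used here. Those neighbours held 452, 60, 0 and 1 reads over the 14 libraries, against 75116 for DNMT1, 6521 for IDH1 and 23573 for KMT2A, and the pseudogene EZH2P1 held 6.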

How the data were processed

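Per the labels, total RNA and RiboLace libraries were made with standard Illumina methods. The deposited values are raw counts per gene, in 1 table of 14 libraries. STAR 2.6.0b, DESeq2 and GRCh38 are named, per the submitters' processing notes, with no role or order; the counting program, annotation and strand setting were not given in the sources used here. Of 58037 gene IDs 57433 matched GENCODE 29 and 604 did not. From the counts, edgeR 4.0.16 (R 4.3.3) gave quasi-likelihood F-tests on genes passing filterByExpr, with TMM scaling, Benjamini-Hochberg adjustment over all genes and calls under 0.05; SE is the log2 change over the square root of F. The scripts were tested on simulated data. Members, partner lists and the rule for named genes (up to 2 largest rises and falls per list at a mean of at least 5 CPM, or the most abundant gene where none passed) were chosen with earlier results of these data known. Alternatives were DESeq2 1.42.0, other scalings, no filter, single lines, line means, coding genes only, a replicate block, each library left out and removal of the exon length trend (lowess, span 0.3, chosen after seeing the data). Replicates differed beyond sampling noise (chi-square per degree of freedom 3.14 to 12.5). Same-numbered control and HHT libraries deviated together (r = 0.511 to 0.636 from group means, 0.243 and 0.464 from line means). Deviations from group means include the line difference. The replicate block took the title numbers to pair these libraries, although the sample descriptions number them otherwise. The main HHT fits had line as a term but no pairing.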

Additional observations from a re-analysis of the deposited data

Results flagged for a closer look

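TET3 was flagged because its HHT response differed between the mutant lines in a test of the difference itself. The log2 change in G7 exceeded that in F3 by 0.583 (edgeR interaction term, adjusted p = 0.0125). In F3 both HHT libraries lay below both controls, and in G7 both lay above, without any pairing of libraries. TET2, its relative, differed by 0.04 (adjusted p = 0.926). Over alternatives the TET3 difference ran from 0.491 to 0.729, and it passed in 11 of the 14. No library was flagged as standing apart from its group in the 20 groups of 4 tested (10 genes in controls and HHT). For 4 values of 1 population, chance alone flags about 1 in 20 such groups. Each group mixed lines F3 and G7, so a line difference widens the range and can hide a library that stands apart.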

How the results depend on the processing

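Of 1236 values of the 10 genes under alternatives, 1108 kept direction and side of the threshold and 37 changed sign without being called in either fit. A further 37 passed newly, 51 no longer passed and 3 reversed; the causes were not tested. Reversed were DNMT3A after HHT with library totals (0.009), TET3 after HHT in G7 alone (0.264) and ASXL1 in RiboLace against total RNA of F3 with the length trend removed (-0.409). After HHT, 7 to 9 of the 10 genes passed under every alternative run.

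Mutant against wild type in total RNA called 636 genes, and 1655 without the filter, 1111 with DESeq2, 2846 with line means, 3080 with F3 alone, 2059 with G7 alone, 2641 with the replicate block and 4028 with crossed numbers; leaving out 1 library gave 43 to 649. Of the 10 genes 0 were called, but 1 without the filter (KMT2A, 0.43, adjusted p = 0.0215) and with G7 alone, and 2 (KMT2A and DNMT1) with line means, F3 alone or the replicate block. With each line its own group and 1 library left out, F3 called 948 to 3250 genes and 0 to 3 of the 10, and G7 1969 to 2407 and 0 to 2. The numbers do not pair these groups (r = -0.115 and -0.05).

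The difference between lines in HHT response called 548 genes, 823 without the filter and 2153 with the replicate block, and 178 to 1089 with 1 library left out; of the 10 genes it called 1, 2 with the block and 0 to 2 with 1 library left out. G7 against F3 called 1743 genes, 847 to 2278 with 1 control or wild-type library left out, and of the 10 genes 1, 0 with DESeq2 and 0 to 1 in those fits.

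In RiboLace, mutant against wild type called 1154 genes, 415 with DESeq2, 768 with the length trend removed and 247 to 1811 with 1 library left out. Of the 10 genes it called 2, but 4 with library totals, 5 with coding genes only, 5 with the replicate block (adding DNMT3A, TET2 and ASXL1), 0 with the length trend removed and 0 to 4 with 1 library left out. RiboLace against total RNA called 3 to 6 of the 10 in wild type with 1 library left out, and 4679 to 7885 genes in F3. The efficiency difference called 229 genes, 151 with library totals, 527 without the filter, 634 with DESeq2, 361 with coding genes only, 263 with the replicate block, 789 with crossed numbers and 24 to 1497 with 1 library left out, which called 0 to 1 of the 10. Same-numbered RiboLace libraries had r = 0.025 across genotypes and -0.107 and -0.106 against total RNA. The replicate block changed no other call of the 10 genes. A lone library was assumed to vary like the other groups. RiboLace depth limits DNMT3B, IDH1 and EZH2, at 9 to 74 reads a library.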
